A study of Mus musculus with 12 samples.

Results

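The genes described here encode the proteasome, the barrel-shaped protease that degrades ubiquitin-tagged proteins. They were chosen by name, as the protein-coding genes whose GRCm38 symbol begins with Psma, Psmb, Psmc, Psmd or Psme followed by a digit. The rule found 45 of the 53379 genes in the count files, and 43 of them passed a filter on low counts that 16554 genes of all kinds passed. By role they were 31 constitutive subunits of the complete particle, 3 immunoproteasome catalytic subunits (Psmb8, Psmb9 and Psmb10), 3 assembly chaperones, 4 activators and 4 others. The constitutive subunits were 7 of the alpha ring, 4 non-catalytic and 3 catalytic ones of the beta ring, 6 ATPases and 11 non-ATPases of the regulatory particle. The 4 others were the testis alpha subunit Psma8, the thymus subunit Psmb11, Psme2b, a near-copy of Psme2, and Psmc3ip, which binds a proteasome ATPase by name but is a recombination protein and no subunit. Psmb11 (0 to 3 counts per library) and Psme2b (0 counts in every library) did not pass the filter and were not tested.

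The samples were fat pads from around the gonads (perigonadal WAT, a visceral white fat) of 9-week-old C57BL/6 animals, from which RNA was sequenced. The mice were either control littermates with intact Cdk7 (wt) or had an adipose-specific knockout of Cdk7 (ko), and received injections of saline or of CL for 7 days, with tissue taken at zeitgeber time 9. The 4 groups were wt saline, wt CL, ko saline and ko CL, each with 3 libraries, and each library held the pooled RNA of 2 mice (250 ng each), so 6 mice stood behind a group and p-values measure the spread between pools. CL is named in the labels by this abbreviation alone, which in work on fat stands for a beta-3-adrenergic agonist, a drug that switches on lipolysis and thermogenic genes in fat. The driver of the knockout is not given in the sources used here, and the fat pad also holds cells outside the adipocyte lineage. Groups were taken from the sample titles. A separate genotype field in the labels follows the treatment and contradicts 6 of the 12 titles.

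As background, the core particle of the proteasome is a stack of outer alpha rings, which form the gate, and inner beta rings, of which Psmb5, Psmb6 and Psmb7 carry the chymotrypsin-like, caspase-like and trypsin-like active sites. A regulatory particle made of Psmc ATPases and Psmd subunits binds ubiquitinated proteins, unfolds them and feeds them into the core. Interferon and immune cells bring in Psmb8, Psmb9 and Psmb10, which take the places of Psmb5, Psmb6 and Psmb7 in newly built immunoproteasomes that cut peptides suited to MHC class I. In mammalian cells the transcription factor Nfe2l1 raises constitutive subunits together when proteasome capacity falls short, and in brown fat it is known for maintaining proteasome activity during cold exposure.

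Promoter windows are printed for Psma1 and for 2 of the constitutive and immunoproteasome pairs that replace each other (Psmb5 and Psmb8, Psmb6 and Psmb9), to set the gene with the greatest CL response in wt beside examples of both kinds of subunit. Each window runs from 250 bases before to 50 bases after the RefSeq start site on GRCm38.p6, and the sequences are from RefSeq. Of the 45 genes, 38 had an entry there, with 41 windows in all. They are written 5′ to 3′ on the strand of the gene. Psma1 is at chr7:114276067-114276366 (minus strand), Psmb5 at chr14:54617946-54618245 (minus strand), Psmb8 at chr17:34197945-34198244 (plus strand), Psmb6 at chr11:70525107-70525406 (plus strand) and Psmb9 at chr17:34187281-34187580 (minus strand). The 5′ gene ends of Psmb8 and Psmb9 in the GENCODE annotation (34197721 and 34187764) lie outside their windows. Motifs at those ends were not searched. Capitals mark matches to 5 motifs that were searched on both strands: the antioxidant response element cores TGACNNNGC and TGAGNNNGC, the gamma-activated site TTCNNNGAA, the core of the interferon-stimulated response element and the CCAAT box. The capitals in Psma1 and Psmb9 are CCAAT boxes (ATTGG where it reads on the other strand), those in Psmb5 and Psmb6 are TGACNNNGC, and those in Psmb8 are TTCNNNGAA.
Psma1: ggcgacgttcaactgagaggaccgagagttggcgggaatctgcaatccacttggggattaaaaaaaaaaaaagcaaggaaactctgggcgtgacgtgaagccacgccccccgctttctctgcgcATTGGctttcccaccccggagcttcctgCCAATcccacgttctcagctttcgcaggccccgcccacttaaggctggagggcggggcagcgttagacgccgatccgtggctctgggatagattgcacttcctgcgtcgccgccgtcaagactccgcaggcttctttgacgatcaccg
Psmb5: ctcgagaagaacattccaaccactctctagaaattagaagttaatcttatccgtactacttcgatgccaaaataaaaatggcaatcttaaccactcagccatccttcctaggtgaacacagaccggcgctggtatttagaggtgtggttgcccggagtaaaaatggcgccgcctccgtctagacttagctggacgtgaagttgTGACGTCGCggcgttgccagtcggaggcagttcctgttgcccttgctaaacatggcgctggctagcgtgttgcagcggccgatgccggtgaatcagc
Psmb8: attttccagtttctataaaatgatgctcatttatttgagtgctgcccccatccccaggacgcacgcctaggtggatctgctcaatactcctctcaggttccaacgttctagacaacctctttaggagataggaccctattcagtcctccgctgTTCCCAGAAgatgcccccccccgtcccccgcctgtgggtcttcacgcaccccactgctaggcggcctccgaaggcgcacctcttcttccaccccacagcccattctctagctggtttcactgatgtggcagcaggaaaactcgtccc
Psmb6: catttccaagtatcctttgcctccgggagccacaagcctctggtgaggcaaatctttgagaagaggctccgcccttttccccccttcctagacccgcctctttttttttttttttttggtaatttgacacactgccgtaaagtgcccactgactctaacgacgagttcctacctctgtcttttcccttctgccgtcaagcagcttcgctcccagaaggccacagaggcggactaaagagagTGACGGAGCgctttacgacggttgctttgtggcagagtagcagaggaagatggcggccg
Psmb9: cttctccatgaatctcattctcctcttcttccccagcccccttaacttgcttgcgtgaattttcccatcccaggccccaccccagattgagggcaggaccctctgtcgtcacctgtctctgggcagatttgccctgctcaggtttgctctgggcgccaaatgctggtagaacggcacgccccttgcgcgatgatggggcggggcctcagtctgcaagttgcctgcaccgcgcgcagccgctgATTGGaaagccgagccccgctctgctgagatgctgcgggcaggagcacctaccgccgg

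The antioxidant core TGACNNNGC lay in 6 of the 41 proteasome windows (14.6%), beside 12.4% of all 32851 RefSeq promoter windows of the same length. Its match began 47 bases before the start in Psmb5 and 9 bases before it in Psmb6, and the others were in Psmc6, Psmd9, Psmd12 and Psme4. The variant TGAGNNNGC lay in 13 windows (31.7%, all promoters 17.6%) of 12 genes, among them Psma4, Psma5, Psma6, Psma7, Psmb3, Psmd1 and Psmd5. The gamma-activated site was in 2 windows, those of Psmb8 and Psmd2 (4.88%, all promoters 8.3%), and the interferon-stimulated element core in 4, those of Psmb3, Psmd4, Psmd9 and Psme1 (9.76%, all promoters 3.44%). CCAAT boxes were in 15 windows (36.6%, all promoters 37.4%). A match describes letters in the window and not a bound factor, and the shares were not tested.

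Libraries held 21892817 to 27985019 counts in genes. Cdk7 was at 29.6 ± 0.35 CPM (counts relative to a TMM-adjusted library total; mean ± SD, n = 3) in wt saline and 11.4 ± 0.36 in ko saline, so the titles and the targeted gene go the same way. Under CL it was at 32.7 ± 2.6 in wt and 20.4 ± 2.9 in ko, a smaller gap. The 8 adipocyte markers summed to 22227 to 24394 CPM in wt saline, 14865 to 15969 in ko saline, 26834 to 29166 in wt CL and only 7219 to 11055 in ko CL. Taken singly, 1 was called higher and 1 lower with CL in wt (all genes 19.6% and 17.1%). In saline 5 were lower in ko than in wt (all genes 6.45%), and under CL all 8 were (all genes 29.3%). Adipoq was at 3334 CPM in wt saline, 3371 in ko saline, 2767 in wt CL and 1279 in ko CL, so the sums do not stand for each marker. The 10 macrophage markers summed to 1397 to 1489 CPM in wt saline and 762 to 904 in wt CL, but 1386 to 1432 (ko saline) and 8686 to 12109 (ko CL) in the knockout, where all 10 rose with CL. Summed endothelial markers (4 genes) were at 437 to 578 CPM in ko CL and 729 to 1267 in the other groups. Fibroblast markers (4 genes) summed to 2512 to 2981 CPM in ko CL, 1221 to 1465 in wt CL and 2000 to 2378 in both saline groups, and mesothelial markers (4 genes) to 91.5 to 259 over all libraries. Markers of T and natural killer cells (7 genes, 7.83 to 15.3 CPM in all libraries together) and of B cells (4 genes, 5.06 to 19.5 CPM) stayed low. Ciliated epithelium markers (5 genes) lay between 47.3 and 62.3 CPM in ko saline and between 2.12 and 22.6 in the other groups, with Ccdc153 and Dnah5 at 0 in wt CL. In whole tissue, fewer cells of a type and less RNA per cell cannot be told apart. The part of these cell mixtures in the proteasome values below was not tested.

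**Figure D1:**
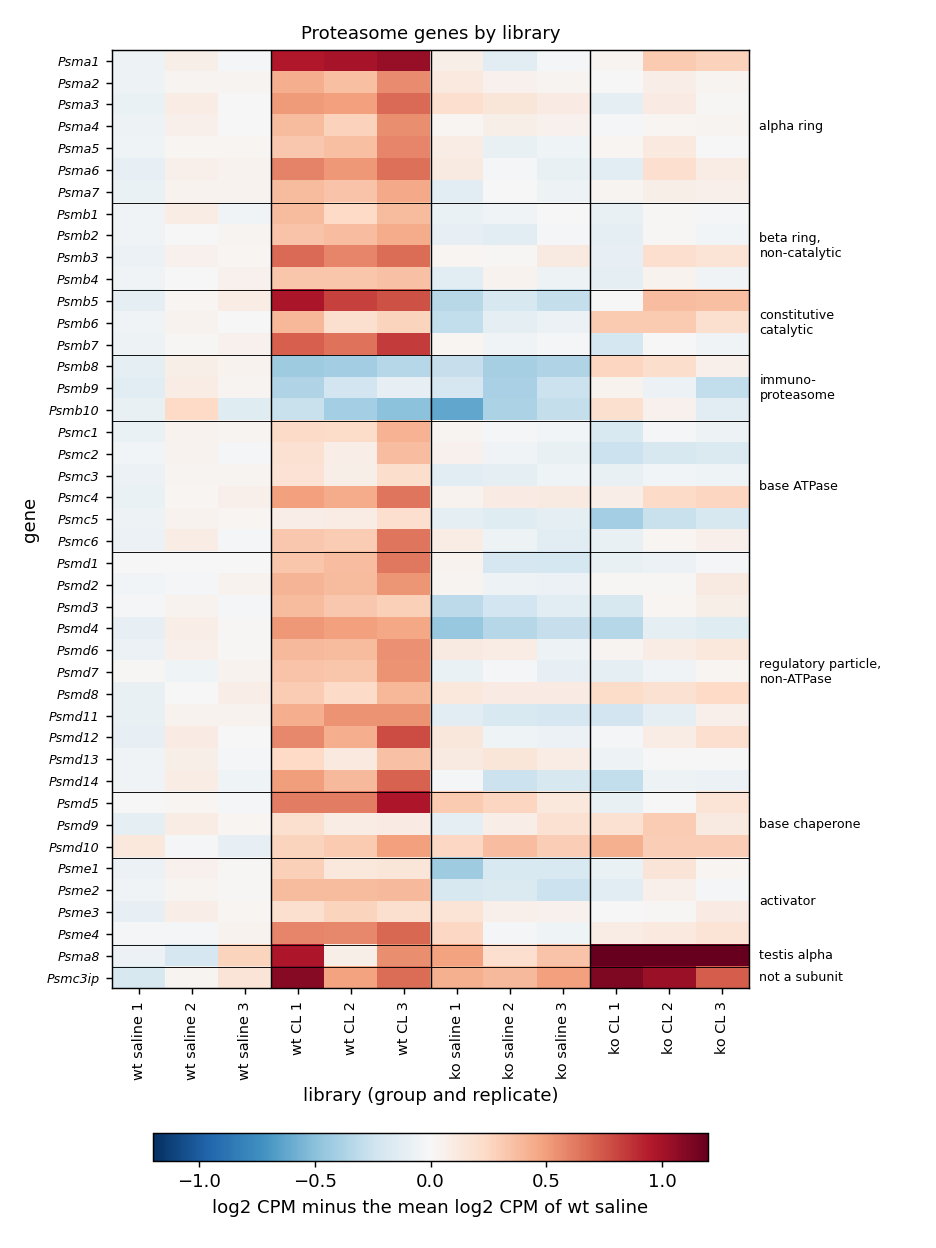
Heat map of the 43 tested proteasome genes (rows, grouped by role) in the 12 libraries (columns), as log2 CPM minus the mean log2 CPM of the 3 wt saline libraries. Under TMM scaling the 3 wt CL columns are red for nearly all constitutive subunits and blue for the immunoproteasome rows Psmb8, Psmb9 and Psmb10, while the ko CL columns are near white for most constitutive rows. With library size alone the constitutive rise in wt CL had a median of 0.12 instead of 0.43.

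Most constitutive proteasome genes rose with CL in wt mice. Of the 43 tested genes, 35 rose and 2 fell, beside 19.6% of all tested genes higher and 17.1% lower (36.8% in either direction). Of the 31 constitutive subunits, 29 rose, with a median log2 fold change of 0.43 and a range of 0.12 to 1.0, where the median of all genes was -0.0118. The ones that did not pass the test were Psmc3 and Psmc5. The 2 genes that fell were immunoproteasome subunits, Psmb8 and Psmb10. The remaining immunoproteasome subunit, Psmb9, did not pass the test, nor did Psma8, Psmd9 and Psme1. These counts rest on the scaling: TMM factors were 0.8029 to 0.8411 in wt CL and 1.0047 to 1.1523 elsewhere, and with library size alone 12 genes rose and 5 fell, with 10 constitutive subunits higher and 2 lower. That scaling moved the median of all genes to -0.33 and the constitutive median to 0.12. The constitutive subunits lay 0.45 above the median of all genes with either scaling. A change of scaling shifts all genes of a comparison nearly alike, so this gap stays by construction and is no check of the scaling. Leaving out 1 library at a time gave 27 to 30 constitutive subunits higher.

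In ko mice few constitutive subunits passed the test for CL. Of the 43 genes 9 rose (27.2% of all genes were higher and 27.5% lower, 54.6% in all), and 0 fell by edgeR, with 3 lower at an unadjusted p under 0.05, 3 lower by DESeq2 and 2 with RLE size factors. The 31 constitutive subunits had a median of 0.04, with Psma1, Psmb5, Psmb6 and Psmd3 higher. Psmb8, Psmb10, Psme1, Psme2 and Psma8 made up the rest of the 9. With ko CL library 2 left out 5 of the 43 rose. Scaled by library size alone, 6 rose and 5 fell, and the constitutive median was -0.04 beside -0.10 for all genes.

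Without CL 6 of the 43 genes were called between the genotypes, a share near that of all genes. In saline 1 gene was higher in ko (7.99% of all genes were) and 5 were lower (6.45%, and 14.4% in either direction): Psmd10 was higher, and Psmb8, Psmb10, Psmd4, Psme1 and Psme2 were lower. The constitutive median was -0.03. Under library size alone the call turned to 11 higher, with the median of all genes at 0.15. By DESeq2 1 was higher and 6 lower. The count of 5 fell to 2 or 3 when any 1 of 9 libraries was left out (the exceptions were wt CL library 3 and ko CL libraries 1 and 2), and the 1 higher gene was lost without wt saline library 2 or 3 or any 1 ko saline library.

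Under CL, 33 of the 43 genes were lower in ko than in wt and 3 were higher (29.3% of all genes were lower and 27.6% higher, 56.8% in all). Among the constitutive subunits 29 of 31 were lower, with a median of -0.42, and the exceptions were Psmb6 and Psmd8. The 3 higher genes were Psmb8, Psmb10 and Psma8. This comparison shares the wt CL libraries with the CL response in wt, so the pair is not independent. Each of the 12 fits that left out 1 library called the same number, 29, of constitutive subunits lower. Library size alone gave 12 higher and 7 lower of the 43, with 3 constitutive subunits higher and 6 lower, with the median of all genes at 0.39. The constitutive median was then -0.03, 0.42 below that of all genes, a gap that a change of scaling leaves in place by construction.

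The CL response itself differed between the genotypes for most of these genes. The test of that difference (the response in ko minus that in wt) called 30 of the 43 lower and 3 higher, beside 23.6% and 21.8% of all genes (45.4% in all). Of the constitutive subunits 26 of 31 had the smaller response in ko, with a median difference of -0.38, and those not called were Psmb5, Psmb6, Psmc3, Psmd3 and Psmd8. All 3 immunoproteasome subunits had the larger response in ko, with a median difference of 0.87. By library size alone the counts were 7 lower and 5 higher, 5 lower and 1 higher among constitutive subunits, and 3 higher among immunoproteasome subunits. Single libraries moved the constitutive count between 22 and 27 and the immunoproteasome count between 2 and 3, where the call lost was that of Psmb9.

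**Figure D2:**
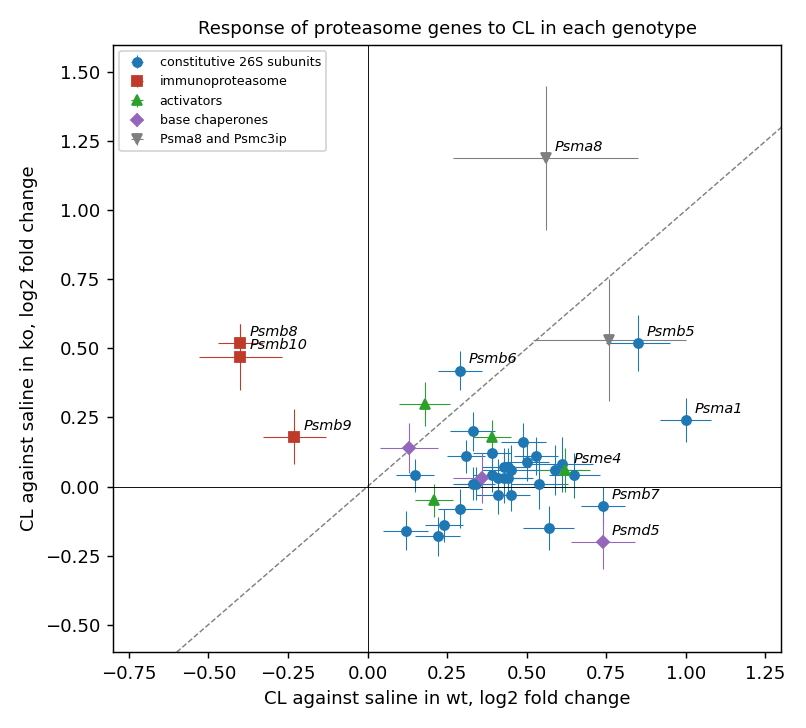
Log2 fold change of CL against saline in wt (horizontal) and in ko (vertical) for each tested proteasome gene, with standard errors from edgeR as bars, TMM scaling and a dashed line where both responses are equal. Constitutive subunits (blue circles) spread to the right along the horizontal line at 0, with Psmb5 and Psmb6 above it, and the immunoproteasome subunits (red squares) lie in the upper left; with library size alone the median of all genes was -0.33 on the horizontal and -0.10 on the vertical axis.

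Among the alpha subunits, which form the outer rings and the gate, Psma1 had the greatest CL response in wt. Its 3 libraries read 147, 161 and 152 in wt saline (CPM), 298, 304 and 316 in wt CL, 161, 139 and 152 in ko saline and 157, 190 and 186 in ko CL. The wt CL libraries stood above all others, about 2-fold over wt saline (log2 fold change 1.0 ± 0.08 SE, adjusted p = 3.52e-06). In ko the rise was 0.24 ± 0.08 (adjusted p = 0.0235) with libraries that overlapped, and it was lost without wt saline library 1 (0.21), ko saline library 2 (0.16) or 3 (0.22), or ko CL library 2 (0.16) or 3 (0.17). Under CL, Psma1 was 1.72-fold lower in ko than in wt (-0.78 ± 0.08, adjusted p = 3.25e-06), and its 2 responses differed by -0.76 ± 0.12 (adjusted p = 0.00018).

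Psma3 read 127, 143 and 134 CPM in wt saline and 192, 189 and 216 in wt CL, a rise of 0.57 ± 0.08 (adjusted p = 0.000111). In ko it read 155, 149 and 144 in saline and 124, 144 and 136 in CL, and that difference of -0.15 ± 0.08 did not pass (adjusted p = 0.12). The responses differed by -0.71 ± 0.11 (adjusted p = 0.000175). The other alpha subunits Psma2, Psma4, Psma5, Psma6 and Psma7 rose in wt by 0.39 (Psma7) to 0.59 (Psma6), none of them passed in ko, and all 7 alpha subunits were lower in ko CL than in wt CL, by 0.34 to 0.78 on the log2 scale. All 7 responses differed between the genotypes, that of Psma7 least (-0.27 ± 0.08, adjusted p = 0.0201; not called without wt CL library 3, -0.23). Psma3 has a processed pseudogene, Gm13835, identical over 665 bases, and reads from stretches that match in both are not counted for either.

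The non-catalytic beta subunits Psmb1, Psmb2, Psmb3 and Psmb4, which build the inner rings around the active sites, all rose with CL in wt, by a median of 0.36. Psmb3 went furthest, from 76 ± 3.3 to 119 ± 4.4 CPM (n = 3 each; 0.65 ± 0.08, adjusted p = 4.32e-05). In ko it was at 78.6 ± 2.9 in saline and 81 ± 9 in CL. None of the 4 passed in ko, where their log2 changes were 0.01 to 0.04, and all 4 were lower in ko CL than in wt CL, Psmb1 least (-0.36 ± 0.06, adjusted p = 0.000275). When scaled by library size alone, Psmb1 and Psmb4 turned to 0.02 and 0.01 in that comparison.

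The 3 constitutive catalytic subunits did not respond alike. Psmb5, the chymotrypsin-like subunit that proteasome inhibitors target (chromosome 14, 54614119 to 54618022), read 39.1, 43.3 and 45.3 CPM in wt saline and 83.9, 75 and 72 in wt CL. In ko it read 33.8, 37.2 and 34.9 in saline and 42.5, 54.9 and 54.7 in CL. CL libraries were thus above saline libraries in both genotypes, with no overlap within a genotype. The rise was 0.85 ± 0.10 in wt (adjusted p = 3.71e-05) and 0.52 ± 0.10 in ko (adjusted p = 0.000717), and the difference between those rises, -0.33 ± 0.14, did not pass (adjusted p = 0.0704). Psmb5 shares 12.1% of its exon length with the microRNA gene Mir686 on the same strand, so its counts are incomplete there. It also has a processed pseudogene, Gm3375, 98.9% identical over 796 bases, and reads from stretches that match in both are not counted for either.

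Psmb7, the trypsin-like subunit (chromosome 2, 38588036 to 38644087), read 146, 153 and 157 in wt saline (CPM), 249, 239 and 272 in wt CL, 154, 148 and 150 in ko saline and 131, 151 and 148 in ko CL. Only the wt CL libraries stood apart. Its rise in wt was 1.67-fold (0.74 ± 0.07, adjusted p = 9.86e-06), its change in ko was -0.07 ± 0.07 (adjusted p = 0.417), and the responses differed by -0.81 ± 0.10 (adjusted p = 3.75e-05). Its gap between the genotypes under CL, 1.77-fold (-0.82 ± 0.07, adjusted p = 6.59e-07), was the largest decrease of any tested proteasome gene in that comparison. Psmb7 overlaps Nek6 on the opposite strand, and the file names state counting by strand.

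Psmb6, the caspase-like subunit (chromosome 11, 70525367 to 70527858), followed neither of these. It read 105, 111 and 108 in wt saline (CPM), 142, 123 and 130 in wt CL, 88.1, 99.7 and 103 in ko saline and 134, 134 and 123 in ko CL. Both CL groups were high and overlapped each other. It rose by 0.29 ± 0.07 in wt (adjusted p = 0.00911) and by 0.42 ± 0.07 in ko (adjusted p = 0.00037), with -0.02 ± 0.07 between the genotypes under CL (adjusted p = 0.863) and 0.14 ± 0.11 between the responses (adjusted p = 0.314). With library size alone its change in wt turned to -0.03 and its genotype gap under CL to 0.37.

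**Figure D3:**
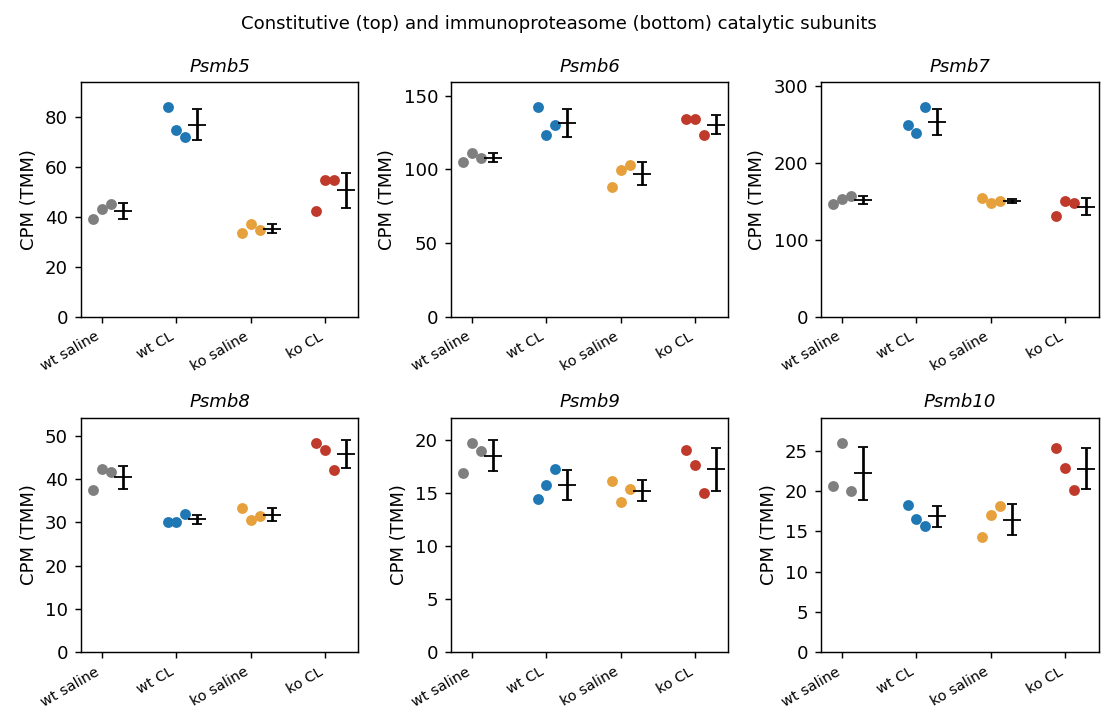
CPM (TMM scaled) of the 3 constitutive catalytic subunits (top) and the immunoproteasome subunits that replace them (bottom) in each library, by group; points are libraries, and bars show the mean ± SD of 3. Psmb5 and Psmb7 are highest in wt CL, Psmb6 is high in both CL groups, and Psmb8 and Psmb10 are lower in wt CL and ko saline than in wt saline and ko CL; with library size alone the rise of Psmb6 in wt turns to -0.03.

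Psmb8 and Psmb10 fell with CL in wt and rose with CL in ko. Psmb8, which takes the place of Psmb5 (chromosome 17, 34197721 to 34201454), read 37.4, 42.3 and 41.6 in wt saline (CPM), 30.1, 30.2 and 31.9 in wt CL, 33.4, 30.6 and 31.4 in ko saline and 48.4, 46.8 and 42.2 in ko CL. Libraries of wt saline lay above those of wt CL and ko saline without overlap. Psmb8 fell by 0.40 ± 0.07 with CL in wt (adjusted p = 0.001) and rose by 0.52 ± 0.07 with CL in ko (adjusted p = 4.41e-05). It was lower in ko than in wt in saline (-0.35 ± 0.07, adjusted p = 0.00821) and higher under CL (0.58 ± 0.07, adjusted p = 1.76e-05). The difference of the responses was 0.92 ± 0.10 (adjusted p = 1.4e-05). None of these calls was lost when 1 library was left out; with library size alone the gap in saline was not called.

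Psmb10, which takes the place of Psmb7 (chromosome 8, 105935735 to 105938444), had the same signs at lower counts (306 to 731 per library). It read 20.7, 26 and 20 in wt saline (CPM), 18.3, 16.6 and 15.7 in wt CL, 14.3, 17 and 18.1 in ko saline and 25.3, 22.9 and 20.2 in ko CL. It fell by 0.40 ± 0.13 with CL in wt (adjusted p = 0.0251) and rose by 0.47 ± 0.12 with CL in ko (adjusted p = 0.00555). The fall in wt was not called without wt saline library 2 (-0.27), wt CL library 2 (-0.39) or wt CL library 3 (-0.35), and the lower level in ko saline (-0.43 ± 0.12, adjusted p = 0.0337) was not called without wt saline library 2 (-0.31), ko saline library 1 (-0.34) or ko saline library 2 (-0.45). The responses differed by 0.87 ± 0.18 (adjusted p = 0.0014).

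Psmb9, which takes the place of Psmb6 and lies beside Psmb8 in the MHC region (chromosome 17, 34181987 to 34187764), moved less. It read 16.9, 19.7 and 18.9 in wt saline (CPM), 14.4, 15.7 and 17.2 in wt CL, 16.1, 14.1 and 15.4 in ko saline and 19, 17.6 and 15 in ko CL. Libraries with and without CL overlapped in both genotypes, and none of the 4 pairwise comparisons passed (-0.23 ± 0.10 with CL in wt, adjusted p = 0.105; 0.18 ± 0.10 in ko, adjusted p = 0.151). The difference of the responses was 0.41 ± 0.15 (adjusted p = 0.0359) and was lost when any 1 of 8 libraries was left out, with values of 0.33 to 0.41: wt saline 2 or 3, wt CL 1 or 2, ko saline 2 or 3, and ko CL 1 or 2. Psmb9 overlaps Tap1 on the opposite strand.

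Macrophages carry the immunoproteasome. In ko CL the summed macrophage markers, at 8686 to 12109 CPM, and Psmb8 and Psmb10 were all higher than in ko saline and wt CL. The macrophage sums of ko CL were also far above those of wt saline. For Psmb8 (42.2 to 48.4 against 37.4 to 42.3 CPM) and Psmb10 (20.2 to 25.3 against 20 to 26 CPM) these 2 groups overlapped. In wt CL the macrophage sums, at 762 to 904 CPM, and Psmb8 and Psmb10 were all lower than in wt saline. In ko saline Psmb8 and Psmb10 were also lower than in wt saline, but there the macrophage sums overlapped (1386 to 1432 against 1397 to 1489). Within ko CL, library 1 had the highest macrophage sum and the highest Psmb8, Psmb9 and Psmb10. The macrophage markers rose in ko by a median of 3.17 on the log2 scale, the immunoproteasome subunits by 0.47. Their part in the result was not tested.

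Ratios of each immunoproteasome subunit to the constitutive subunit it replaces were taken within each library, where the scaling between libraries has no part. Log2 of Psmb8 over Psmb5 counts was -0.06, -0.03 and -0.12 in wt saline, -1.48, -1.31 and -1.17 in wt CL, -0.02, -0.28 and -0.15 in ko saline and 0.19, -0.23 and -0.37 in ko CL. These counts are not divided by length, so the ratios are read between groups and not as which gene is more abundant. As a geometric mean, the ratio of counts was 95.1% in wt saline, 40% in wt CL, 90.3% in ko saline and 90.8% in ko CL. Only wt CL stood apart, 2.38-fold below wt saline (difference -1.25 ± 0.09 SE) and 2.27-fold below ko CL, and both of those comparisons had no overlap. The exact two-sided permutation p was 0.1 for each, the smallest that 3 against 3 allows. In ko, CL changed the ratio by 0.01 ± 0.19 (exact permutation p = 1).

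Psmb10 over Psmb7 gave -2.81, -2.55 and -2.97 in wt saline, -3.76, -3.84 and -4.12 in wt CL, -3.43, -3.12 and -3.06 in ko saline and -2.37, -2.72 and -2.87 in ko CL. It was lower with CL in wt (-1.13 ± 0.16) and higher with CL in ko (0.55 ± 0.19), and in all 4 pairwise comparisons the libraries did not overlap (exact permutation p = 0.1 each). Psmb9 over Psmb6 gave -2.63, -2.49 and -2.52 in wt saline, -3.30, -2.97 and -2.92 in wt CL, -2.45, -2.82 and -2.75 in ko saline and -2.82, -2.93 and -3.03 in ko CL. It was lower with CL in wt without overlap (-0.52 ± 0.13, exact permutation p = 0.1), and in ko the libraries overlapped (-0.25 ± 0.13, exact permutation p = 0.2).

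Over both genotypes, with treatment labels exchanged within genotype (400 arrangements, smallest p 0.005), CL against saline gave -0.62 for Psmb8 over Psmb5 (exact permutation p = 0.055, Benjamini-Hochberg 0.16 over 6 tests), -0.38 for Psmb9 over Psmb6 (0.01, adjusted 0.06) and -0.29 for Psmb10 over Psmb7 (0.365, adjusted 0.438). None passed the adjustment. These tests average both genotypes, so opposite changes cancel in them: Psmb10 over Psmb7 changed by -1.13 with CL in wt and by 0.55 in ko. With genotype labels exchanged within treatment the ko minus wt differences were 0.55, 0.01 and 0.42 (exact permutation p of 0.08, 0.96 and 0.175; adjusted 0.16, 0.96 and 0.262). They likewise average saline and CL, where Psmb10 over Psmb7 differed by -0.42 and 1.25. The CL responses of the 3 ratios, ko minus wt, differed by 1.26 ± 0.21, 0.27 ± 0.18 and 1.68 ± 0.25, which was not tested.

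**Figure D4:**
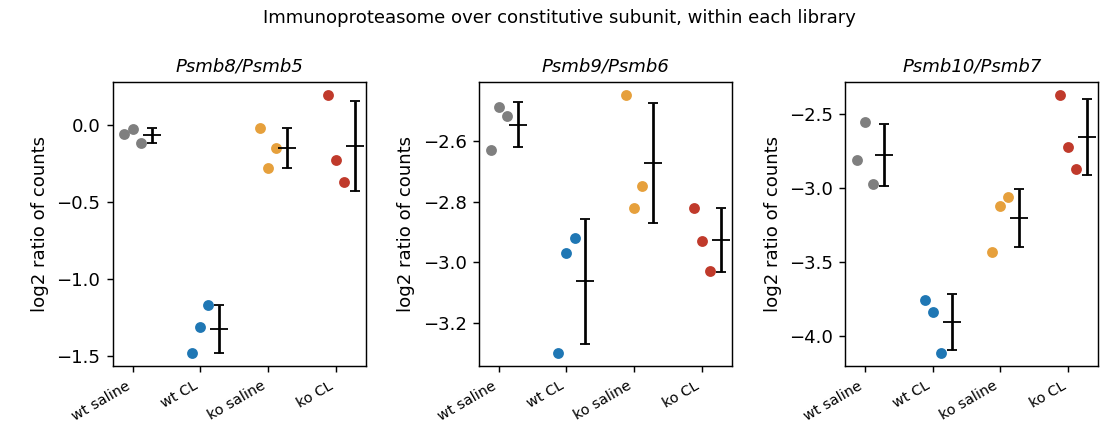
Log2 ratio of counts of each immunoproteasome subunit to the constitutive subunit it replaces, within each library, by group; points are libraries and bars show the mean ± SD of 3. The ratios are not divided by length; Psmb8 over Psmb5 lies between -0.37 and 0.19 in all groups but wt CL, where it lies between -1.48 and -1.17, and Psmb10 over Psmb7 is lowest in wt CL and highest in ko CL.

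The 6 ATPases Psmc1 to Psmc6, form the ring that unfolds substrates. In wt their log2 changes with CL ran from 0.12 (Psmc5) to 0.53 (Psmc4), with a median of 0.26. Psmc4 went from 78.4 ± 3.8 to 113 ± 7.9 CPM (adjusted p = 8.87e-05), while Psmc3 (0.15 ± 0.06, adjusted p = 0.0601) and Psmc5 (0.12 ± 0.07, adjusted p = 0.162) did not pass. The call of Psmc2 in wt (0.22 ± 0.07, adjusted p = 0.0328) was lost without any 1 of 8 libraries (0.14 to 0.24; wt saline 1, 2 or 3, wt CL 3, ko saline 2 or 3, ko CL 2 or 3). None of the 6 passed in ko, where Psmc2 (-0.18 ± 0.07, adjusted p = 0.0548) and Psmc5 (-0.16 ± 0.07, adjusted p = 0.0501) were nearest. All 6 were lower in ko CL than in wt CL, from Psmc3 (-0.21 ± 0.06, adjusted p = 0.00874) to Psmc6 (-0.44 ± 0.09, adjusted p = 0.00142). Scaled by library size alone, Psmc1, Psmc2, Psmc3 and Psmc5 turned negative in wt (-0.02, -0.10, -0.16 and -0.19).

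Psmc5 was lowest in ko CL, at 84.5, 92.8 and 98.1 CPM, below 103, 101 and 104 in ko saline, 107, 115 and 114 in wt saline and 118, 119 and 129 in wt CL. Its responses differed by -0.28 ± 0.09 (adjusted p = 0.0232), a call lost without wt saline library 1 (-0.27) or wt CL library 3 (-0.24). That of Psmc6 (-0.41 ± 0.13, adjusted p = 0.0238) was lost without wt CL library 3 (-0.29) or ko saline library 1 (-0.35).

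All 11 non-ATPase subunits of the regulatory particle rose with CL in wt, by 0.24 (Psmd13) to 0.61 (Psmd12), with a median of 0.44. Psmd14, the deubiquitinase that removes ubiquitin chains before entry, went from 124 ± 6.8 to 181 ± 20 CPM (0.54 ± 0.09, adjusted p = 0.000735) and was at 112 ± 9.6 and 112 ± 10 in ko saline and ko CL. The scaffold subunit Psmd2 went from 265 ± 7.7 to 361 ± 21 CPM (0.44 ± 0.07, adjusted p = 0.000207), with 260 ± 10 and 273 ± 10 in ko. Under CL 10 of the 11 were lower in ko, led by Psmd4 (-0.69 ± 0.07) and Psmd14 (-0.68 ± 0.09, adjusted p = 4.11e-05), and Psmd8 did not pass (-0.10 ± 0.06, adjusted p = 0.207). The rise of Psmd13 in wt (adjusted p = 0.0121) was lost without wt saline library 1 (0.20) or wt CL library 3 (0.17), and with library size alone Psmd8 and Psmd13 turned to -0.01 and -0.08 in wt. Psmd13 overlaps Sirt3 on the opposite strand. In ko, Psmd3 was called higher with CL (0.20 ± 0.07, adjusted p = 0.0348), a call lost without wt saline library 1 (0.16), any 1 ko saline library (0.12 to 0.21) or ko CL library 2 (0.14) or 3 (0.11).

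Psmd4, a ubiquitin receptor, was the only 1 of the 31 constitutive subunits chosen by name that was called between the genotypes without CL. It read 122, 138 and 132 CPM in wt saline, 95.5, 103 and 108 in ko saline, 187, 183 and 180 in wt CL and 103, 121 and 118 in ko CL. Every ko library lay below every wt library. The difference was -0.36 ± 0.07 without CL (adjusted p = 0.00878) and -0.69 ± 0.07 with it (adjusted p = 4.8e-06). It rose by 0.49 ± 0.07 with CL in wt (adjusted p = 0.000264) and was not called in ko (0.16 ± 0.07, adjusted p = 0.0895). The responses differed by -0.33 ± 0.10 (adjusted p = 0.021), which was lost without ko saline library 3 (-0.30). Under library size alone the gap in saline was not called. For Psmd1 the responses differed by -0.39 ± 0.12 (adjusted p = 0.0208), which was lost without wt CL library 3 (-0.29).

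Psmd5, Psmd9 and Psmd10 carry Psmd names but are chaperones that help to assemble the ATPase base and leave it before the particle is complete. Psmd5 read 51, 51.9 and 50.4 in wt saline (CPM), 78.3, 78.3 and 100 in wt CL, 63.5, 61.1 and 55.7 in ko saline and 48.1, 51.4 and 57.2 in ko CL. It rose 1.68-fold in wt (0.74 ± 0.10, adjusted p = 8.57e-05) and was not called in ko (-0.20 ± 0.10, adjusted p = 0.0927), and the difference of the responses, -0.95 ± 0.14 (adjusted p = 0.000121), had the greatest size of any tested proteasome gene. Psmd10, also known as gankyrin, read 15.9, 14.4 and 13.6 in wt saline (CPM), 17.6, 18.1 and 20.6 in wt CL, 17.4, 18.9 and 17.9 in ko saline and 19.6, 17.9 and 17.9 in ko CL. All 9 libraries outside wt saline were above it. Its higher level in ko saline (0.30 ± 0.09, adjusted p = 0.0336) was lost without wt saline library 2 (0.29) or 3 (0.25) or any 1 ko saline library (0.27 to 0.34). Its smaller CL response in ko (-0.32 ± 0.12, adjusted p = 0.0451) was lost without any 1 of 8 libraries (-0.35 to -0.25; wt saline 2 or 3, wt CL 2 or 3, ko saline 2 or 3, ko CL 2 or 3) and by DESeq2 (-0.32, adjusted p = 0.0621). Psmd9 did not pass any comparison (17.9 ± 1.3, 19.5 ± 0.78, 18.6 ± 1.8 and 20.5 ± 1.3 CPM in wt saline, wt CL, ko saline and ko CL).

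Among the activators that open the gate of the core, Psme1 and Psme2 form the interferon-inducible ring known as PA28, Psme3 forms its nuclear relative and Psme4 is the large activator PA200. Psme1 read 64.4, 70.2 and 68.3 in wt saline (CPM), 82.3, 73.7 and 74.6 in wt CL, 50.4, 59.5 and 59.5 in ko saline and 64.1, 75.2 and 68.8 in ko CL. Its level was lowest in ko saline (-0.26 ± 0.08 against wt, adjusted p = 0.0497), and it rose from there with CL (0.30 ± 0.08, adjusted p = 0.00763), while the difference with CL in wt did not pass (0.18 ± 0.08, adjusted p = 0.0939). The gap in saline was lost without any 1 library other than ko CL 1 or 2 (-0.30 to -0.18) and with RLE size factors (-0.26, adjusted p = 0.0542). The rise in ko was lost without ko saline library 1 (0.19) or ko CL library 2 (0.21).

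Psme2 read 116, 122 and 121 in wt saline (CPM), 156, 156 and 157 in wt CL, 105, 106 and 100 in ko saline and 109, 125 and 118 in ko CL. It rose by 0.39 ± 0.06 in wt (adjusted p = 0.000324) and by 0.18 ± 0.06 in ko (adjusted p = 0.0234), and was lower in ko in saline (-0.21 ± 0.06, adjusted p = 0.0377) and with CL (-0.42 ± 0.06, adjusted p = 6.29e-05). The rise in ko was lost without wt saline library 1 (0.15), any 1 ko saline library (0.12 to 0.16) or ko CL library 2 (0.10) or 3 (0.14), and the gap in saline without any 1 library other than wt CL 3 and ko CL 1 or 2 (-0.23 to -0.18). Psme2 thus rose with CL in wt together with the constitutive subunits and unlike Psmb8 and Psmb10, although all 3 are known as interferon-inducible. Psme2b is 99.4% identical to Psme2 over 794 bases, and reads that match both are not counted.

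Psme4 read 152, 153 and 159 in wt saline (CPM), 232, 230 and 250 in wt CL, 184, 153 and 149 in ko saline and 164, 168 and 173 in ko CL, so that wt CL stood apart. It rose by 0.62 ± 0.08 in wt (adjusted p = 6.98e-05), was not called in ko (0.06 ± 0.08, adjusted p = 0.554), and its responses differed by -0.56 ± 0.11 (adjusted p = 0.0012). Psme3 read 76.5, 86.5 and 83.2 in wt saline (CPM), 93.4, 98.6 and 93.9 in wt CL, 92.1, 85.5 and 84.8 in ko saline and 82.3, 82.7 and 87.8 in ko CL. Its rise in wt was 0.21 ± 0.06 (adjusted p = 0.0169), lost without wt saline library 1 (0.15) or wt CL library 2 (0.19), and with library size alone its change turned to -0.10. Its lower level in ko CL (-0.18 ± 0.06, adjusted p = 0.0276) was lost without wt CL library 2 (-0.15) or ko CL library 1 (-0.16) or 2 (-0.17), and its smaller response in ko (-0.27 ± 0.09, adjusted p = 0.0246) without wt saline library 1 (-0.23) or wt CL library 2 (-0.24).

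The 2 remaining tested genes were rare. Psma8, an alpha subunit of the testis, had 16 to 89 counts per library and read 0.791, 0.721 and 0.996 in wt saline (CPM), 1.62, 0.869 and 1.22 in wt CL, 1.16, 0.952 and 1.05 in ko saline and 3.08, 2.04 and 2.11 in ko CL. Every ko CL library lay above every other one. It rose with CL in ko (1.19 ± 0.26, adjusted p = 0.00197), was not called in wt (0.56 ± 0.29, adjusted p = 0.146) and was higher in ko under CL (0.96 ± 0.27, adjusted p = 0.00797). The difference of its responses did not pass (0.63 ± 0.39, adjusted p = 0.208). Psmc3ip (20 to 54 counts) read 0.753, 0.881 and 0.961 CPM in wt saline and 1.84, 1.2 and 1.37 in wt CL, a rise of 0.76 ± 0.24 (adjusted p = 0.0248) that was lost without wt saline library 1 (0.65) or 2 (0.77) or wt CL library 1 (0.57) and by DESeq2 (0.74, adjusted p = 0.0607). It read 1.16, 1.13 and 1.21 in ko saline and 1.87, 1.77 and 1.42 in ko CL, which did not pass (0.53 ± 0.22, adjusted p = 0.0612).

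Levels of different genes were set side by side per length, as CPM per kilobase of the principal transcript. Counts cover all annotated exons of a gene (for Psmd11 6383 bases, where the principal transcript has 2848), so the order of genes is approximate. Psmd11 also has near-copies, and reads that match both are not counted. In wt saline the 31 constitutive subunits ran from 26.7 (Psmd11) to 142 CPM per kb (Psma6), with a median of 80.7. Of the constitutive catalytic subunits Psmb5 was lowest in every group (47.3 CPM per kb in wt saline, 85.6 in wt CL, 39.2 in ko saline and 56.4 in ko CL), while Psmb6 and Psmb7 were at 135 and 131 in wt saline. Reads that Psmb5 shares with Mir686 or Gm3375 are not counted, which can lower its level. Immunoproteasome subunits were lower still, at 13.7 (Psmb9), 17 (Psmb10) and 24.8 CPM per kb (Psmb8) in wt saline. In wt CL Psma1 reached 255 and Psmb7 219 CPM per kb. The base chaperones Psmd5, Psmd9 and Psmd10 were at 6.88 to 11.6 CPM per kb in wt saline, and among the activators Psme2 was highest in every group (124 in wt saline, 163 in wt CL).

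In 3 of the 4 groups 1 library was highest or lowest for 26 or more of the constitutive subunits. Of the 31 constitutive subunits, 26 were highest within wt CL in library 3 and 28 were lowest within ko CL in library 1, the library with the highest macrophage sum and the lowest adipocyte sum of that group. In wt saline 26 were lowest in library 1. No ko saline library reached that number: libraries 1, 2 and 3 were highest for 16, 6 and 9 subunits and lowest for 10, 7 and 14. Across the 12 libraries, log2 CPM of the 465 pairs of constitutive subunits had a median Pearson r of 0.89 (0.02 to 0.98), the 3 immunoproteasome pairs 0.72 (0.63 to 0.82), and the 93 pairs between both kinds -0.36 (-0.75 to 0.37). These values describe 12 libraries in 4 groups that share the scaling, and they carry no test. Psmb6 was the least like the rest, with a mean r of 0.50 to the other constitutive subunits. All proteasome genes together took 0.4156% to 0.4323% of gene counts in wt saline, 0.4508% to 0.4849% in wt CL, while the knockout had 0.4514% to 0.4639% (saline) and 0.4255% to 0.4679% (CL).

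Other assembly chaperones and accessory proteins of the proteasome were read as a list. Beside this and the next lists, the shares of all genes called were 19.6% higher and 17.1% lower for CL in wt, 27.2% and 27.5% for CL in ko, 27.6% and 29.3% for ko under CL, and 21.8% and 23.6% for the difference of responses. Of 16 listed genes 15 were tested (not Psmg3), and 6 rose with CL in wt (median 0.18), while 4 rose, near the share of all genes, and 1 fell in ko (median 0.08). Without ko saline library 3 only 2 rose in ko, and 2 fell without any 1 of wt saline library 1, ko saline libraries 1 to 3 or ko CL library 3. Under CL 7 were lower and 1 higher in ko than in wt. Without CL 1 was lower in ko (6.45% of all genes were) and 0 were higher. That gene was Adrm1, at 39.6 ± 4.2 CPM in wt saline and 28.4 ± 4.1 in ko saline. Its call was lost without wt saline library 2 or 3 or ko saline library 1. Pomp, the maturation factor of the beta ring, read 92.1, 104 and 102 in wt saline (CPM), 117, 117 and 134 in wt CL, 95.7, 97.2 and 92.4 in ko saline and 93.1, 89.3 and 92.6 in ko CL. It rose by 0.30 ± 0.07 in wt (adjusted p = 0.004; -0.01 with library size alone) and its responses differed by -0.35 ± 0.10 (adjusted p = 0.00923). Txnl1, a thioredoxin-like protein bound to the lid, rose by 0.50 ± 0.09 in wt (adjusted p = 0.00066), and Usp14, the proteasome-bound deubiquitinase, by 0.38 ± 0.07 (adjusted p = 0.00109). Psmf1, an inhibitor of the core, did not pass any comparison. For CL in ko Sem1 had the smallest adjusted p of the list and rose, from 50.9 ± 6.2 to 69.5 ± 5.3 CPM. In wt Sem1 was at 52.8 ± 1.6 CPM in saline and 65.5 ± 6.3 in CL. Psmg1, a chaperone of the alpha ring, was lower with CL in ko (-0.40 ± 0.10, adjusted p = 0.00303). By library size alone 5 of the list were called lower in wt and 9 higher in ko under CL, so its direction depends on the scaling.

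Nfe2l1, the factor known to drive constitutive subunits, read 456, 489 and 493 in wt saline (CPM), 525, 497 and 503 in wt CL, 466, 467 and 467 in ko saline and 301, 316 and 337 in ko CL. The ko CL libraries lay below all others. It fell by 0.55 ± 0.07 with CL in ko (adjusted p = 1.44e-05), was not called in wt (0.09 ± 0.07, adjusted p = 0.33; -0.23 with library size alone), and its responses differed by -0.64 ± 0.09 (adjusted p = 0.000127). Its relative Nfe2l2, which drives antioxidant genes, went from 117 ± 2.2 to 167 ± 24 CPM with CL in ko (0.51 ± 0.08, adjusted p = 0.000232) and was at 95.1 ± 2.8 and 95 ± 4.3 in wt. Of the 17 listed genes of the Nfe2l1 axis and of shuttle factors, 7 rose and 1 fell with CL in wt, 4 rose and 6 fell in ko, and 11 were lower and 3 higher in ko under CL (median -0.39). The 4 that rose in ko are near the share of all genes, and 2 rose without ko saline library 2 or 3 or ko CL library 3. Ufd1 and Nploc4, partners of the segregase Vcp, rose in wt by 0.38 ± 0.06 (adjusted p = 0.000595) and 0.41 ± 0.06 (adjusted p = 0.00028). Ddi2, the protease that activates Nfe2l1, rose with CL in ko (0.91 ± 0.10, adjusted p = 5.43e-06), but its gene overlaps Rsc1a1 on the same strand, so its count is uncertain. When scaled by library size alone, 8 of that list were called lower in wt, and 6 were higher and 4 lower in ko under CL.

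Of 13 ubiquitin genes and enzymes 4 were higher and 1 lower with CL in wt, with a median of 0.08, and the 1 lower call was lost without wt saline library 3 or wt CL library 2 or 3. Uba1, the main activating enzyme, rose by 0.39 ± 0.06 (adjusted p = 0.000451) and Ube2k, a conjugating enzyme, by 0.37 ± 0.06 (adjusted p = 0.000389). With library size alone 7 of the list were called lower. Of 10 antioxidant targets 6 rose with CL in wt, led by G6pdx, the entry enzyme of the pentose phosphate pathway (0.96 ± 0.11, adjusted p = 4.02e-05), and Srxn1 (0.89 ± 0.12, adjusted p = 0.000133), and with library size alone 2 rose and 2 fell. In ko 5 rose and 4 fell, Hmox1, the haem-degrading enzyme, by the most (1.66 ± 0.12, adjusted p = 1.94e-07).

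Genes of MHC class I presentation and its inducers, the setting in which the immunoproteasome works, were lower with CL in wt for 6 of 13 tested. Their median was -0.21, and 7 were lower by DESeq2 and 4 to 9 with 1 library left out. Not tested were Ifng and Irf8, and Irf8 had 0 counts in every library, ko CL included. This 0 is not read as absence of expression, and the reason for it was not tested. In ko 5 were higher and 2 lower, and 7 of the 13 responses were larger in ko, beside 27.2%, 27.5% and 21.8% of all genes. H2-D1, a class I heavy chain, fell by 0.25 ± 0.07 in wt (adjusted p = 0.0195; lost without wt saline library 2 or 3 or wt CL library 2 or 3, -0.25 to -0.22) and rose by 0.34 ± 0.07 in ko (adjusted p = 0.00212). Tap1, the peptide transporter subunit beside Psmb9, read 31, 34.6 and 36.5 in wt saline (CPM), 29.9, 30.7 and 28.4 in wt CL, 29.9, 26.6 and 30.4 in ko saline and 34.4, 36.7 and 33.4 in ko CL, and its responses differed by 0.47 ± 0.11 (adjusted p = 0.00383). B2m, the class I light chain, was not called for CL in either genotype (-0.22 ± 0.09, adjusted p = 0.0809, and -0.08 ± 0.09, adjusted p = 0.502).

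Of the inducers of this pathway, Nlrc5, the class I transactivator, fell with CL in ko (-0.50 ± 0.11, adjusted p = 0.00144), and Irf1 did not pass any comparison. The interferon gamma receptor chain Ifngr2 rose from 37.3 ± 0.58 to 74.7 ± 10 CPM with CL in ko (1.0 ± 0.09, adjusted p = 8.18e-07). Scaled by library size alone, each of the 13 genes was called lower in wt.

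**Figure D5:**
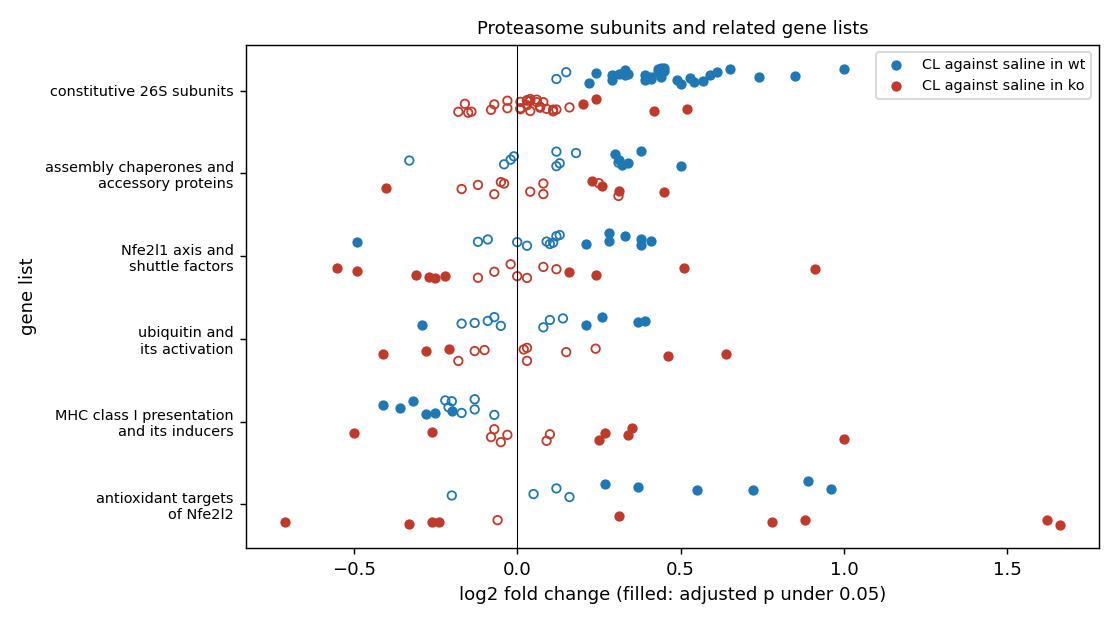
Log2 fold change of CL against saline (edgeR, TMM scaling) for the constitutive subunits and the genes of 5 related lists, in wt (blue) and in ko (red); each point is 1 gene, filled where the adjusted p is under 0.05, and offset vertically only for legibility. The blue points of the constitutive subunits lie to the right of 0, those of MHC class I lie mostly to its left, and the other lists spread over both sides; with library size alone the median of all genes in wt was -0.33.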

How the data were processed

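RNA was sequenced from 12 libraries of perigonadal fat, 3 in each of 4 groups. The authors deposited raw counts per gene, made with STAR and HTSeq on GRCm38 per the submitters' processing notes. Counting used the reverse strand per the file names, and no source used here gives versions or the annotation. Symbols and coordinates came from GENCODE M21, which matched 53274 of 53379 identifiers. The 5 HTSeq summary lines held 12.5% to 17.2% of counts in a library and were left out. Reads with several matches in the genome or in overlapping genes are not counted by HTSeq. By blastn 2.17.0 (at least 97% identity over at least 100 bases), 15 of the proteasome genes share a stretch with 19 other genes. Within a group no library repeated another (chi-square per degree of freedom 6.96 to 55.5).

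The gene test was edgeR's quasi-likelihood F test (version 4.0.16, R 4.3.3; filterByExpr, minimum count of 10, TMM, 1 mean per group, 8 residual degrees of freedom, common biological coefficient of variation 11.5%), adjusted by Benjamini-Hochberg over 16554 genes and called at 0.05. Each standard error is the size of the log2 fold change divided by the root of its F. Ratios within a library used a prior count of 0.5 and exact two-sided permutation tests. The test was checked on simulated counts. Precision is limited by counting for genes with few counts and by 3 pools per group for the rest. Alternatives were RLE size factors, library size alone, no filter, a minimum count of 50, only the groups compared, a replicate block, DESeq2 1.42.0 and leaving out each library. Python 3.11.15, numpy 2.4.6, pandas 2.3.3 and matplotlib 3.10.9 were used for the rest.

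All tested proteasome genes are named. Values in every library are given for Psmb5 to Psmb10, Psme1 to Psme4 and the 4 largest called increases and decreases per comparison. Other genes are a fixed set with Nfe2l1, Nfe2l2, Pomp, Psmf1, Tap1, B2m, Nlrc5, Irf1 and Cdk7, and, per list and comparison, up to 4 called genes by smallest adjusted p, of which the leading 2 are used. Further proteasome genes given with values, such as Psmb3, Psmc4, Psmd2 and Psmd14, were picked as examples of their role after their values were seen. Gene members and lists were chosen with earlier results of these data known. No protein sequences were used here. A few listed genes are not reported here, and the lists' counts and medians leave them out.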

Additional observations from a re-analysis of the deposited data

Results flagged for a closer look

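Of 76 genes examined singly (the tested proteasome genes, a fixed set of others and the leading 2 of each list and comparison), 56 had a CL response that differed between the genotypes by the edgeR test of that difference (response in ko minus response in wt, log2, TMM scaling, called at an adjusted p under 0.05). About 45.4% of all tested genes did so. The leading genes of the lists were picked by calls that include this same test, so 56 of 76 cannot be set against that share. Of the 43 tested proteasome genes, which were chosen by name, 30 were called lower and 3 higher. In the alpha ring these were Psma1 (-0.76), Psma2 (-0.48), Psma3 (-0.71), Psma4 (-0.44), Psma5 (-0.36), Psma6 (-0.53) and Psma7 (-0.27). In the beta ring they were Psmb1 (-0.32), Psmb2 (-0.35), Psmb3 (-0.60), Psmb4 (-0.33) and Psmb7 (-0.81), and in the immunoproteasome Psmb8 (0.92), Psmb9 (0.41) and Psmb10 (0.87). Of the ATPases they were Psmc1 (-0.38), Psmc2 (-0.40), Psmc4 (-0.42), Psmc5 (-0.28) and Psmc6 (-0.41). Of the non-ATPase subunits they were Psmd1 (-0.39), Psmd2 (-0.37), Psmd4 (-0.33), Psmd6 (-0.41), Psmd7 (-0.38), Psmd11 (-0.42), Psmd12 (-0.52), Psmd13 (-0.38) and Psmd14 (-0.53). The chaperones Psmd5 (-0.95) and Psmd10 (-0.32) and the activators Psme3 (-0.27) and Psme4 (-0.56) complete the proteasome genes.

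Among accessory proteins the differences were -0.35 for Pomp, -0.58 for Psmg1, -0.54 for Txnl1, -0.39 for Ecpas and -0.51 for Ube3c. In the Nfe2l1 axis they were -0.64 for Nfe2l1, 0.51 for Nfe2l2, 0.80 for Ddi2, -0.59 for Ufd1 and -0.43 for Nploc4. Among ubiquitin genes they were -0.24 for Uba1, -0.50 for Ube2k, -0.33 for Ube2r2 and 0.80 for Rps27a. In MHC class I presentation they were 0.76 for Calr, 0.59 for H2-D1, 1.21 for Ifngr2, 0.60 for Pdia3, 0.47 for Tap1 and 0.30 for Tap2. Of the antioxidant targets G6pdx differed by -1.29 and Hmox1 by 1.54, and Cdk7 itself by 0.70.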

How the results depend on the processing

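Scaling by library size alone was the alternative that changed most. The median of all genes then moved to -0.33 for CL in wt, -0.10 for CL in ko, 0.15 for ko in saline, 0.39 for ko under CL and 0.20 for the difference of responses. Proteasome genes called higher and lower were 12 and 5 for CL in wt, 6 and 5 for CL in ko, 11 and 0 for ko in saline, 12 and 7 for ko under CL, and 5 and 7 for the difference of responses. For CL in wt the direction then turned for Psmb6 (-0.03), Psmc1 (-0.02), Psmc2 (-0.10), Psmc3 (-0.16), Psmc5 (-0.19), Psmd8 (-0.01), Psmd13 (-0.08), Psme3 (-0.10), Pomp (-0.01), Sem1 (-0.01), Nfe2l1 (-0.23) and Sqstm1 (-0.28). For ko under CL it turned for Psma5 (0.01), Psma7 (0.05), Psmb1 (0.02), Psmb4 (0.01), Psmb6 (0.37), Psmc1 (0.01), Psmc3 (0.18), Psmc4 (0.05), Psmd3 (0.02), Psmd6 (0.03), Psmd8 (0.29), Psmd10 (0.36), Psmd13 (0.13), Psme1 (0.24), Psme3 (0.21), B2m (0.01), Irf1 (0.37), Psmf1 (0.28), Sqstm1 (0.25), Srxn1 (0.38), Tap2 (0.18), Uba1 (0.14), Ube3c (0.10) and Usp14 (0.18). No other alternative turned a direction of a named gene that was called. For CL in ko the count of lower genes was 2 with RLE size factors, 1 with no filter, 3 with a minimum count of 50, 1 with the replicate block and 3 by DESeq2. For ko in saline the count of higher genes was 0 with no filter or the replicate block and 2 with only the 2 groups, and the count of lower genes was 3 with the replicate block. With the block the difference of responses was not called for Psmb9 (0.41, adjusted p = 0.0599) or Psmd10 (-0.33, adjusted p = 0.0705). In other comparisons the replicate block moved no count by over 1.5 times, and the replicate numbers did not pair the libraries (over 18 same-numbered pairs, deviations from group means had a median r of 0.016, and 2 were over 0.1). Leaving out 1 library gave 31 to 35 higher and 1 to 2 lower for CL in wt, 5 to 10 higher and 0 to 3 lower for CL in ko, 0 to 1 higher and 2 to 7 lower for ko in saline, 3 higher and 32 to 33 lower for ko under CL, and 2 to 3 higher and 25 to 31 lower for the difference of responses. The ratio of Psmb8 to Psmb5 for CL over both genotypes ran from -0.70 to -0.56, with an exact permutation p of 0.04 without ko saline library 2 and 0.015 without ko CL library 1. Of 215 called results of named genes, 88 were kept in each alternative run; 315 of 7139 gene alternatives lost a call and 140 gained one, changes of direction included. Apart from what construction shows (fewer libraries, other scaling), the cause was not tested. Among tested proteasome genes counts were lowest for Psmc3ip (20 to 54 per library) and Psma8 (16 to 89).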
